A study of Mus musculus with 8 samples.

Results

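F-box proteins are the substrate-choosing subunits of SCF ubiquitin ligases, and 76 of the 21938 protein-coding genes on the nuclear chromosomes of mm10 carry a symbol that begins with Fbxo, Fbxl or Fbxw and a digit. Fbxo32, which encodes atrogin-1, was left out by that rule. The 76 genes were 18 Fbxl genes, whose proteins carry leucine-rich repeats, 35 Fbxo genes, whose proteins carry other or no known domains, and 23 Fbxw genes, whose proteins carry WD40 repeats. The rule used symbols and no peak values, but it was set with earlier results of these data known.

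The study mapped the glucocorticoid receptor (GR) and the chromatin around it by ChIP-seq in skeletal muscle of wild-type (WT) C57/Bl6J mice aged 10-12 weeks. The immunoprecipitates were for GR, RNA polymerase II (Pol2), H3K4me3, H3K27ac, H3K4me1 and CTCF, with 1 library each, and 2 inputs completed the 8 samples. All groups shared strain, genotype, age and tissue. The labels name no hormone treatment, muscle, sex or number of animals, so whether animals were pooled is not known here. Each value below is a property of 1 library, without a replicate check and without a p-value. It is set beside the same value over all protein-coding genes, unless another set is named.

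In an SCF ligase the scaffold Cul1 holds the RING protein Rbx1 at one end and Skp1 at the other, and Skp1 holds an F-box protein, which binds the substrate. A cell changes what it degrades by changing which F-box proteins it makes. In skeletal muscle this class is known for atrogin-1 and for other F-box proteins of wasting, some of them under FOXO control, and glucocorticoids are a classical cause of wasting. GR is a hormone-activated transcription factor that binds the imperfect palindrome called the glucocorticoid response element (GRE) and also reaches chromatin through other factors. H3K4me3 marks promoters, H3K4me1 with H3K27ac marks active enhancers, and CTCF marks insulators and loop anchors.

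The tissue label was checked against marker genes. Pol2 peaks lay at the start sites of 10 of 10 muscle fibre markers, 4 of 4 fibro-adipogenic, 1 of 4 endothelial, 1 of 4 immune, 0 of 3 satellite cell and 0 of 6 oocyte or testis markers. H3K4me3 was at 8 of 10 fibre, 4 of 4 fibro-adipogenic, 4 of 4 endothelial, 1 of 4 immune, 2 of 3 satellite cell and 0 of 6 oocyte or testis markers. Markers of cells other than fibres thus carried peaks, and the part of such cells in the peaks of the F-box genes was not tested. In whole muscle, fewer cells with a peak and less signal per cell cannot be told apart. The 6 lists held between 6526 (CTCF) and 75523 (H3K4me1) peaks, with 23188 for GR. The read depth is unknown, and a missing peak therefore says that none was called, not that the protein or mark was absent.

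A GR peak lay within 1 kb of a transcription start site (TSS) of 48 of the 76 F-box genes, or 63.2% (exact 95% binomial interval 51.3 to 73.9%), against 42.6% of all protein-coding genes. Pol2 was at the start of 50 F-box genes, or 65.8% (54.0 to 76.3%), against 46.6% of all genes. H3K4me3 was at 58, or 76.3% (65.2 to 85.3%), against 60.9%. These 3 shares of F-box genes had intervals that lay above the value of all genes. With the widest 50% of each list they no longer did: GR was at 39.5% (28.4 to 51.4%), against 30.3%, Pol2 at 40.8% (29.6 to 52.7%), against 30.9%, and H3K4me3 at 56.6% (44.7 to 67.9%), against 45.6%. Ranked by deposited fold instead of width, the strongest 50% of H3K4me3 peaks were at 51 F-box genes, or 67.1%, against 46.0%. The intervals cover counting error over genes only, and F-box genes share sequence and, in part, position.

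The acetylation mark H3K27ac was at the start of 50 F-box genes, or 65.8% (54.0 to 76.3%), against 51.9% of all genes. H3K4me1 was at 56, or 73.7% (62.3 to 83.1%), against 64.3%. CTCF was at 7, or 9.21% (3.78 to 18.1%), against 6.52%. The interval of H3K27ac lay above the value of all genes, and those of H3K4me1 and CTCF included it.

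In gene bodies, outside the windows of 1 kb around start sites, the F-box genes did not stand apart from other genes for most lists. GR peaks lay in the body of 11 F-box genes, or 14.5%, against 15.8% of all genes. For Pol2 the count was 4, or 5.26%, against 7.82%, and for H3K4me3 it was 6, or 7.89%, against 11.3%. H3K27ac peaks lay in 16 bodies, or 21.1%, against 20.3%, and CTCF peaks in 9, or 11.8%, against 9.51%. H3K4me1 lay in 41 bodies, or 53.9%, against 44.4%, and all 6 intervals included the value of all genes. The F-box genes were longer, with a median of 24800 bases against 17400 bases for all genes.

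With the reach widened to 25 kb of a start site, 56 F-box genes had a GR peak, or 73.7% (62.3 to 83.1%), against 58.5% of all genes. The counts for Pol2 and H3K4me3 were 54 (71.1%, against 57.9%) and 61 (80.3%, against 70.8%). For H3K27ac and H3K4me1 they were 57 (75.0%, against 63.9%) and 62 (81.6%, against 77.2%). CTCF was within 25 kb of 30 F-box genes, or 39.5% (28.4 to 51.4%), against 28.7% of all genes. The intervals of GR and Pol2 lay above the value of all genes, and those of H3K4me3, H3K27ac, H3K4me1 and CTCF included it.

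**Figure D1:**
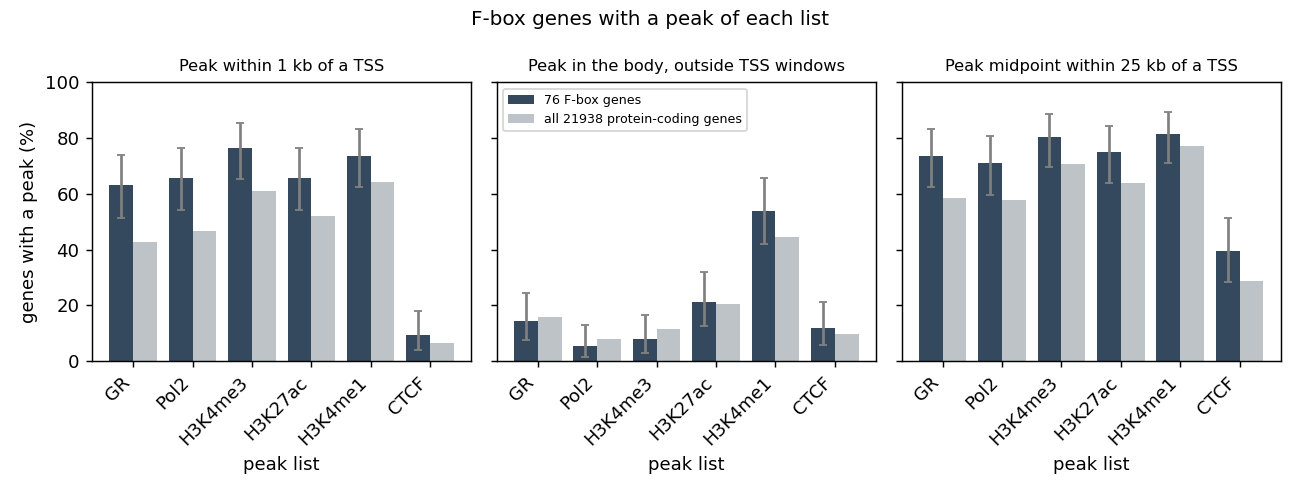
Share of genes with a peak of each list (percent, vertical axis) within 1 kb of a TSS, in the body and within 25 kb, for the 76 F-box genes (dark bars, with exact 95% binomial intervals) and for all 21938 protein-coding genes (pale bars). At start sites GR stood at 63.2% of the F-box genes against 42.6% of all genes, while in bodies it stood at 14.5% against 15.8%.

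The start sites fell into 4 classes. H3K4me3 with Pol2, the pattern of a promoter in use, was found at 50 F-box genes (65.8%), against 46.4% of all genes. H3K4me3 without Pol2 was found at 8, against 14.6% of all genes, another of the 6 lists without H3K4me3 at 3, against 7.97%, and no peak of any list at 15, against 31.1%. Fbxl genes divided 14, 3, 1 and 0 over these classes, Fbxo genes 29, 4, 1 and 1, and Fbxw genes 7, 1, 1 and 14. The 14 Fbxw genes without a peak form 1 cluster on chromosome 9, and outside it the 9 Fbxw genes divided 7, 1, 1 and 0. Leaving out these 14 genes, none of which has a peak, raises the shares by construction. Among the other 62 F-box genes GR stood at 77.4%, against 42.6% of all genes without the cluster, Pol2 at 80.6%, against 46.6%, and H3K4me3 at 93.5%, against 61.0%.

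The 50 F-box genes with H3K4me3 and Pol2 included Fbxl4, Fbxl5, Fbxl6, Fbxl7, Fbxl8, Fbxl12, Fbxl13, Fbxl14, Fbxl15, Fbxl17, Fbxl18, Fbxl19 and Fbxl20, then Fbxo2, Fbxo3, Fbxo4, Fbxo5, Fbxo6, Fbxo7, Fbxo8, Fbxo9, Fbxo10, Fbxo11, Fbxo15, Fbxo17, Fbxo21, Fbxo22, Fbxo24, Fbxo25, Fbxo28, Fbxo30, Fbxo31, Fbxo33, Fbxo34, Fbxo36, Fbxo38, Fbxo40, Fbxo42, Fbxo44, Fbxo45, Fbxo46 and Fbxo47, and Fbxw2, Fbxw4, Fbxw5, Fbxw7, Fbxw8, Fbxw9 and Fbxw11. GR was at 46 of these 50 start sites, or 92.0%, against 85.6% of all genes with both marks. H3K27ac was at 49 of the 50, or 98.0%, against 98.5%. Among the 58 F-box genes with H3K4me3, GR was at 47, or 81.0%, against 69.2% of all genes with H3K4me3, Pol2 at 50, or 86.2%, against 76.1%, and H3K27ac at 49, or 84.5%, against 84.2%. The share with GR therefore lay nearer to that of other genes once promoters with both marks were compared. GR, Pol2 and H3K4me3 were together at the start of 46 of the 76 F-box genes, or 60.5%, against 39.7% of all genes. GR was called at most promoters in use, of F-box genes and of other genes alike.

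The 4 F-box genes with both marks and no GR peak at a start were Fbxl5, Fbxl8, Fbxl12 and Fbxw9. Their nearest GR peaks lay 13372, 9501, 6900 and 17088 bases from a start. Fbxl5 encodes the iron-sensing subunit that targets the iron regulatory proteins.

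**Figure D2:**
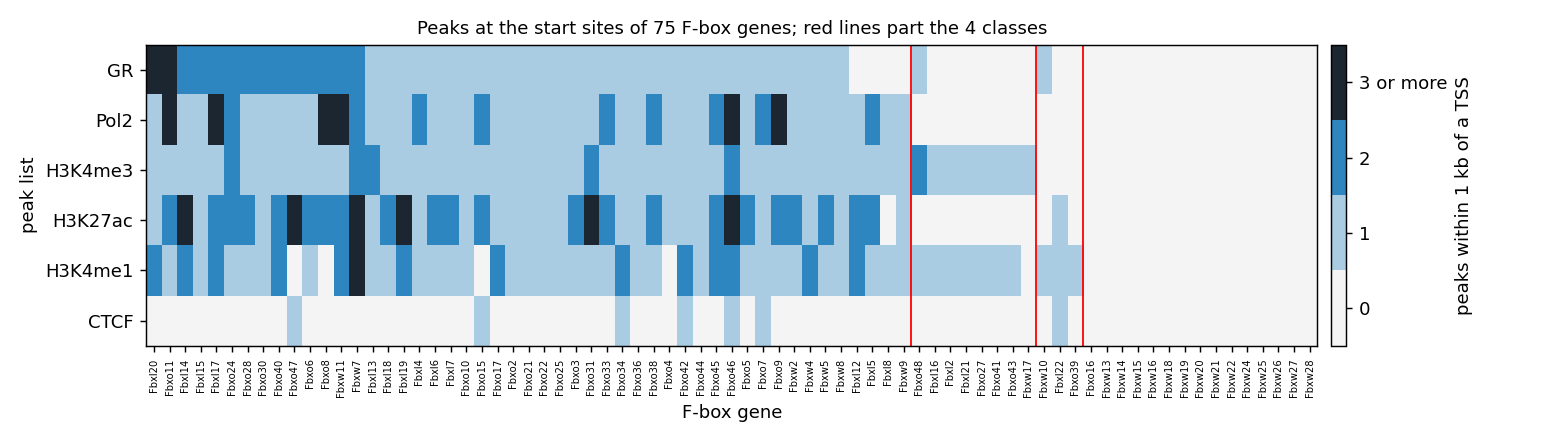
Number of peaks (colour, 0 to 3 or more) of each list within 1 kb of a TSS for each of 75 F-box genes, with red lines between the 4 classes of start site. From left to right stand 49 genes with H3K4me3 and Pol2, 8 with H3K4me3 without Pol2, 3 with another list and 15 with none, and GR falls at 45, 1, 1 and 0 of them.

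The GR peaks at F-box start sites were narrow and close to the start. Over the 48 genes the widest GR peak at the start spanned 123 to 723 bases with a median of 232 bases, against a median of 280 bases over all genes with one. There were 62 such peaks, with a median distance of 93 bases from midpoint to start, 38 of them upstream. H3K4me3 overlapped 60 of the 62 and Pol2 overlapped 53, and the same shares over GR peaks at all starts were not computed. Counted by gene, 47 of the 48 also had H3K4me3 at a start, near the 9251 of 9345 among all genes with GR there. At 15 of the 48 genes (31.2%) there were 2 or more GR peaks, against 26.3% of all genes with one. Fbxo11, whose product targets the repressor Bcl6, and Fbxl20 had 3 each, and the 723-base peak of Fbxo11 was the widest at any F-box start.

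Most GR peaks within reach of F-box genes lay on promoters, and those in their bodies lay mostly on H3K4me1, with or without H3K27ac. Within 25 kb of F-box genes lay 135 GR peaks, of which 98 (72.6%, against 53.2% of all 23188 GR peaks) overlapped H3K4me3. A further 21 (15.6%, against 19.3%) overlapped H3K4me1 with H3K27ac, 9 (6.67%, against 19.9%) H3K4me1 alone, 2 (1.48%, against 0.811%) H3K27ac alone, and 5 (3.7%, against 6.78%) no histone peak. A selection around start sites favours promoter peaks. For 77 of the 135 an F-box gene was the protein-coding gene with the nearest start, and the others lay nearer to a neighbour. Inside F-box gene bodies were 21 GR peaks, 18 in introns and 3 in exons, with 10 on H3K4me1 and H3K27ac, 9 on H3K4me1 alone and 2 on H3K4me3. Bodies were counted without the start windows, which leaves out most promoter peaks by construction. The same split over the bodies of all genes was not computed, so it is not a trait of F-box genes.

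The GRE was searched in the 300 bases around each GR peak midpoint as the half-sites GNACA and TGTNC with 3 bases between them, without mismatch and on both strands, where N is any base. It was found in 6 of the 144 windows of GR peaks near or in F-box genes, or 4.17%, against 5.89% of all GR peaks. None of the 98 windows at a protein-coding start site held it, against 1.01% of all GR peaks at starts, while 6 of the 46 windows away from starts did, or 13.0%, against 10.3%. The 3 windows with a GRE for which an F-box gene was the nearest gene are printed whole, because they show the sequence under distal GR peaks of Fbxo31, Fbxw11 and Fbxw8. They are on the plus strand of mm10, at chr8:121563063-121563362, chr11:32623255-32623554 and chr5:118143692-118143991, with the GRE in capitals.
Fbxo31: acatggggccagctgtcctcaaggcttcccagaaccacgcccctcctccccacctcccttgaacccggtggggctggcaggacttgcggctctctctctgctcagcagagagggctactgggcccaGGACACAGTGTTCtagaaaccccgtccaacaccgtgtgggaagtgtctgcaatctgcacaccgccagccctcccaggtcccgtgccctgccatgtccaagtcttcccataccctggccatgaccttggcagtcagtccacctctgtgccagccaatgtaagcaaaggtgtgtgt
Fbxw11: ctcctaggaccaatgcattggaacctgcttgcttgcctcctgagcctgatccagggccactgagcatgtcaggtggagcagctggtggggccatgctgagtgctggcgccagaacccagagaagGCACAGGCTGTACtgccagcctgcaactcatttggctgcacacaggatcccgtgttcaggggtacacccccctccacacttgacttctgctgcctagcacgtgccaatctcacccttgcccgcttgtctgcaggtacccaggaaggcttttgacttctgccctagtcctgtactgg
Fbxw8: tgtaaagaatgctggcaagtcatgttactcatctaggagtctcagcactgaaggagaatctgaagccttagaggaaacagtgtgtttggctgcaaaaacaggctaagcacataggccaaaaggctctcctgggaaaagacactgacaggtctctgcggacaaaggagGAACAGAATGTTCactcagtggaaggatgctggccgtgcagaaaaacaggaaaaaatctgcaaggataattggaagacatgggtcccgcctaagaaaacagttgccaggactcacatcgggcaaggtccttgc

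The other GREs lay near Fbxw5, Fbxw2 and Fbxl5, in peaks whose nearest starts were those of Ptgds, Gm34653 and Cd38. Stretches of 61 bases around them show how the half-sites vary, on the plus strand at chr2:25478475-25478535, chr2:34843735-34843795 and chr5:43845302-43845362. The match near Fbxl5 lay in the 300-base window but outside the peak itself, which spanned 130 bases.
Fbxw5: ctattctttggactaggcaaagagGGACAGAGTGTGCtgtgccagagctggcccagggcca
Fbxw2: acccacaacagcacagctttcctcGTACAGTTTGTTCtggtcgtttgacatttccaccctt
Fbxl5: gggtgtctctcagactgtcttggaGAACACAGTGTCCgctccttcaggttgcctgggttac

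A match is a description of letters and not a proven binding site. Of the other motifs, the GC box GGGCGG was in 52.1% of the F-box windows, against 41.7% of all GR peaks, and the E-box CAGCTG, a target of muscle basic helix-loop-helix factors, in 22.9%, against 24.3%. The E-box CACGTG was in 8.33%, against 7.19%, and the FOXO motif TGTTTAC in 1.39%, against 3.75%. A MEF2-like pattern, CTA and TAG with any 4 bases between them, was in 4.17%, against 4.43%. Other forms of MEF2 site were not searched.

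Among the F-box genes tied to muscle mass, 5 of 6 had H3K4me3, Pol2 and GR at the start, against 39.7% of all genes. Of the 62 F-box genes outside the chromosome 9 cluster, 46 had all 3. Fbxo31 stood out by number of peaks. It encodes a subunit known for degrading cyclin D1 and lies at chr8:121549440-121578806 on the minus strand. It had 9 GR peaks within 25 kb, a count reached by 1 other F-box gene, Fbxl18, and by 1.22% of all genes. For 7 of the 9 Fbxo31 was the nearest gene, and the other peaks were nearer to Map1lc3b, which encodes the autophagy protein LC3B.

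One GR peak of Fbxo31, of 225 bases, was centred 28 bases downstream of the start, on H3K4me3 and Pol2. Inside the body 5 GR peaks followed at 5425, 8218, 15534, 16917 and 27018 bases from the start, with widths of 552, 226, 706, 172 and 460 bases. All 5 carried H3K4me1 and H3K27ac, the first 4 were in introns and the last in an exon. The peak of 706 bases is the one whose GRE is printed above, and Pol2 peaks overlapped it and the peaks at 8218 and 16917 bases. Upstream, GR peaks of 352 and 159 bases lay at 1795 and 5053 bases, again with H3K4me1 and H3K27ac.

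H3K27ac formed 16 peaks in the body of Fbxo31 and covered 33.7% of the gene, and H3K4me1 covered 89.3%. Fbxo31, Fbxw11 and Fbxl17 were the 3 F-box genes with 15 or more H3K27ac peaks in the body, a count reached by 1.08% of all genes. With 4 or more GR peaks in the body there were also 3 F-box genes, Fbxo31, Fbxw11 and Fbxw8, against 2.3% of all genes. H3K4me3 at its start was 1494 bases wide with a deposited fold enrichment of 36.0, near the median of 37.0 over F-box genes with H3K4me3.

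**Figure D3:**
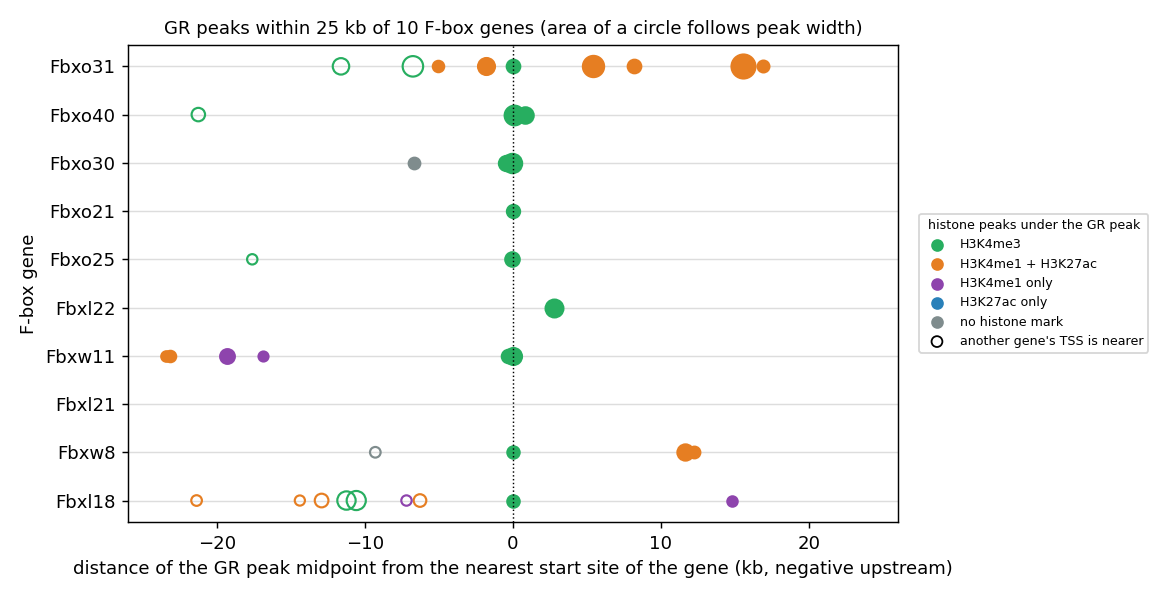
GR peaks within 25 kb of 10 F-box genes, placed by the distance of the midpoint from the nearest start of the gene (kb, negative upstream). Colour gives the histone peaks under each GR peak, circle area follows width, and open circles are nearer to another gene. Fbxo31 and Fbxl18 have 9 each, of which 7 and 2 are nearest to the gene itself, and Fbxl21 has none.

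Fbxo40, a muscle-restricted F-box gene whose product degrades IRS1, showed the broadest Pol2 at a start among F-box genes. Its Pol2 peak spanned 1324 bases, against a median of 244 bases over F-box genes and 271 bases over all genes with Pol2 at a start. A further 5 Pol2 peaks lay in the body, between 1487 and 4389 bases from the start, and Pol2 covered 7.79% and H3K27ac 18.7% of the gene. GR peaks of 476 and 330 bases were centred 46 and 851 bases downstream of the start. H3K4me3 was 2351 bases wide with a fold of 19.5, so it was wider and lower than the F-box medians of 1470 bases and 37.0. The RefSeq promoter of GRCm38.p6, on the minus strand at chr16:36990418-36990717 and within reach of that GR peak, held 2 CAGCTG E-boxes, shown in capitals because the motif is a classical target of myogenic factors.
Fbxo40: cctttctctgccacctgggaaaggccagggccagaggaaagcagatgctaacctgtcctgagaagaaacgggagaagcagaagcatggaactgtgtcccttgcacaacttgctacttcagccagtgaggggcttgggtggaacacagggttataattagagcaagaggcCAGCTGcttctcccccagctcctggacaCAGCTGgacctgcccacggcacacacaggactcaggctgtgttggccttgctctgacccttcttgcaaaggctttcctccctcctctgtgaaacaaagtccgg

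Fbxo30, which encodes the atrophy ligase MUSA1, had GR peaks of 457 and 283 bases centred 36 and 482 bases upstream of the start. Another, of 166 bases, lay 6684 bases upstream and carried no histone peak. Pol2 at the start spanned 833 bases, and H3K4me3 was 2340 bases wide with a fold of 51.4. Its promoter, on the plus strand at chr10:11281337-11281636, had 79.7% GC, against 56.0% for that of Fbxo40, and is shown with its GC boxes in capitals to set both kinds of promoter under GR side by side.
Fbxo30: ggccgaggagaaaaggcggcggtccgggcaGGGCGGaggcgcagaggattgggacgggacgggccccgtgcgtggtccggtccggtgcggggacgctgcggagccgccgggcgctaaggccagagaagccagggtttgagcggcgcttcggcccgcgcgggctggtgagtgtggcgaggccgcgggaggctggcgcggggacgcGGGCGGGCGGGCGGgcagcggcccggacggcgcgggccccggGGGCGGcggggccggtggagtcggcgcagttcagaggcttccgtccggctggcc

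Fbxo21, which encodes the ligase called SMART, and Fbxo25, a relative of atrogin-1, had simpler starts. Each had 1 GR peak there, of 213 bases at Fbxo21 and 258 bases at Fbxo25, and 1 Pol2 peak, of 193 and 164 bases. H3K4me3 had a fold of 58.4 at Fbxo21 and 38.6 at Fbxo25. Neither had a GR peak in the body or another within 25 kb for which it was the nearest gene.

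Fbxl22 encodes a sarcomeric F-box protein of heart and skeletal muscle, and its GR, Pol2 and H3K4me3 peaks lay away from the annotated start. At chr9:66508459-66514593 on the minus strand, no GR, Pol2 or H3K4me3 peak fell within 1 kb of its only annotated start in GENCODE M21. H3K27ac, H3K4me1 and CTCF each had 1 peak within 1 kb of that start. The H3K4me3 peak, of 1417 bases with a fold of 21.1, was centred 2700 bases inside the gene. A GR peak of 390 bases lay at 2769 bases, in an exon, and Pol2 peaks of 473 and 296 bases lay at 2720 and 2061 bases. H3K27ac covered 42.3% of the gene, the highest value among F-box genes, and Pol2 12.5%. No other protein-coding start was nearer to the GR, Pol2 and H3K4me3 peaks. The window of this GR peak, on the plus strand at chr9:66511674-66511973, had 73.7% GC. It held the E-box CACGTG, in capitals, and also the E-box CAGCTG, left in lower case. It is shown because GR, Pol2 and H3K4me3 met there and not at the annotated start.
Fbxl22: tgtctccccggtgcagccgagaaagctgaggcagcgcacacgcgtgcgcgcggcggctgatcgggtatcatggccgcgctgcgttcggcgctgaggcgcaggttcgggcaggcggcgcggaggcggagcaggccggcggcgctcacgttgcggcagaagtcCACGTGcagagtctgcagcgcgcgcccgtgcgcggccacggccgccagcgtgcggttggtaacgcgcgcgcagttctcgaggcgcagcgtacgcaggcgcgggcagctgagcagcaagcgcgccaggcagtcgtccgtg

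Among the clock genes, Fbxw11, which encodes the PER- and IκB-degrading subunit βTrCP2, had a promoter in use, with H3K4me3, Pol2 and GR. Fbxl21, whose product acts on cryptochromes in the cytoplasm, had H3K4me3 of 892 bases with a fold of 13.7 and H3K4me1, but no Pol2, GR or H3K27ac peak. The nearest GR peak was 59721 bases away from Fbxl21.

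Fbxw11 had 6 GR peaks within 25 kb and was the nearest gene for each, against 4.34% of all genes with 6 or more. GR peaks of 353 and 220 bases stood at its start and 4 more lay upstream, between 16866 and 23457 bases. Of those upstream, the farther pair carried H3K4me1 with H3K27ac and the nearer pair H3K4me1 alone, and the GRE printed above belongs to the peak at 19319 bases. Its body held 4 GR peaks and 17 H3K27ac peaks.

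Of the 6 cell cycle genes, 5 had H3K4me3, Pol2 and GR at the start, against 39.7% of all genes. All 3 were at 46 of the 62 F-box genes outside the chromosome 9 cluster. Fbxw7, which targets cyclin E and Myc, had 2 GR peaks, of 421 and 123 bases, at different starts, and 3850 bases of H3K4me3 with a fold of 58.3. Fbxw8, which works with Cul7, had a GR peak of 186 bases at the start and 4 in the body, at 11622, 12230, 26609 and 72139 bases, of which the nearer pair carried H3K4me1 with H3K27ac. The peak at 11622 bases is the one with the GRE, in an intron. Fbxo4, a cyclin D1 adaptor, had 161 bases of GR at the start and Pol2 over 2.85% of the gene, and Fbxo5, the APC/C inhibitor Emi1, had a GR peak of 385 bases. Fbxo43, its oocyte paralogue Emi2, had H3K4me3 of 442 bases with a fold of 15.1 and no GR or Pol2 at the start.

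All 3 genes tied to mitochondria and iron had H3K4me3 and Pol2, against 46.4% of all genes and 50 of the 62 F-box genes outside the cluster. Fbxo7, a partner of Parkin in mitophagy, had GR of 233 bases, and Fbxl4, which limits mitophagy, had GR of 517 bases. Some products of the sugar-binding F-box family recognise N-glycans of misfolded glycoproteins. Of its 5 genes, 4 had GR, Pol2 and H3K4me3, against 39.7% of all genes and 46 of the 62 F-box genes outside the cluster. The starts of Fbxo2 and Fbxo44 lay 139 bases apart on opposite strands, so that 1 GR peak of 140 bases counted for both. The neighbouring Fbxo6 had its own GR peaks of 279 and 174 bases and Pol2 over 9.51% of its 6425 bases. Fbxo27 was the exception, with H3K4me3 of 656 bases and the lowest fold among F-box genes, 9.63.

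Some F-box genes shared a start window with another gene. Another protein-coding start lay within 1 kb of 15 of them (19.7%), on the opposite strand each time, against 13.3% of all genes on either strand. All 15 had H3K4me3 and Pol2 at the start, against 46.4% of all genes and 50 of the 62 F-box genes outside the cluster. The share over all genes with such a neighbouring start was not computed. The peaks cannot be assigned to one direction of transcription. At Fbxo24, Fbxl6, Fbxl8 and Fbxl12 the partners were Lrch4, Slc52a2, Tradd and Ubl5. The GR peak of 472 bases at Fbxo24 was nearer to Lrch4, and that of 310 bases at Fbxl6 was nearer to Slc52a2.

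Several GR peaks within reach of F-box genes belonged to neighbours. Fbxl18 was the nearest gene for 2 of its 9 GR peaks, of which that at its start spanned 189 bases, while the other 7 were nearer to Actb. Fbxl8, with 5, was nearest for none. Fbxl16 had 4, which included the widest within reach of any F-box gene, of 826 bases, at Stub1, and no GR at its own start. Fbxl15, a regulator of Smurf ligases, also had 5, of which 2 were at its start. At their own starts, Fbxl19 had a GR peak of 580 bases, Fbxo45 of 435 bases and Fbxo46 of 447 bases.

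Pol2 peaks, those at the start included, covered a median of 0.64% of the gene among F-box genes with Pol2 at the start, against 0.945% among all such genes. The share depends on gene length by construction, and the F-box genes were longer. More than 10% was covered at 2 F-box genes, Fbxl15 (14.1%) and Fbxl22 (12.5%), or 2.63%, against 2.85% of all genes. Lower values included those of Fbxo6 (9.51%), Fbxo40 (7.79%), Fbxw5 (5.53%), Fbxl6 (4.06%), Fbxo31 (3.02%), Fbxo4 (2.85%) and Fbxl8 (2.59%). Fbxl15, Fbxl6 and Fbxw5 are short genes, of 2263, 3026 and 4722 bases, where the promoter peak itself takes a large share. The fibre gene Acta1, by comparison, lay wholly under Pol2 (100.0%), and Ckm to 74.3%.

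**Figure D4:**
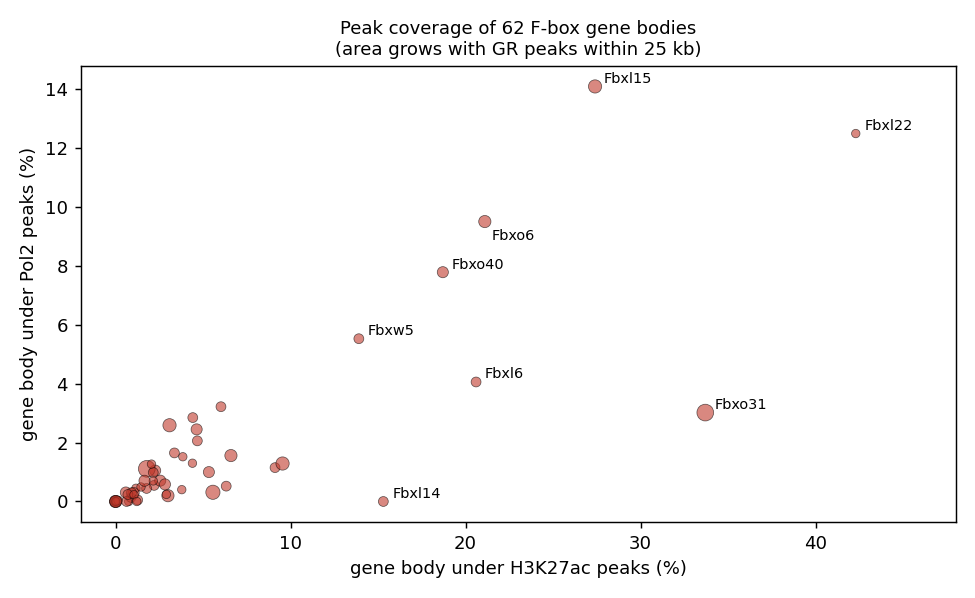
Share of the gene under Pol2 peaks (percent, vertical axis) against the share under H3K27ac peaks (percent, horizontal axis) for the 62 F-box genes outside the chromosome 9 cluster, start included, with circle area growing with the number of GR peaks within 25 kb. Fbxl15 and Fbxl22 lie above 10% on the Pol2 axis, and Fbxo31 combines 33.7% H3K27ac with 3.02% Pol2.

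The 8 F-box genes with H3K4me3 and no Pol2 at the start were Fbxl2, Fbxl16, Fbxl21, Fbxo27, Fbxo41, Fbxo43, Fbxo48 and Fbxw17. Their H3K4me3 was narrower and weaker, with a median of 706 bases and a fold of 14.4, against 1500 bases and a fold of 39.9 at the 50 with Pol2. Over all genes the medians of the same classes were 835 bases and 12.1, against 1520 bases and 38.5. None of the 8 had H3K27ac at the start, against 38.9% of all genes of this class. Fbxo41 and Fbxl16 belong to the list of neuronal F-box genes, and the widths and folds were 352 bases and 12.6 at Fbxo41 and 1175 bases and 22.9 at Fbxl16. Fbxl2 had 585 bases and 10.1, and Fbxw17 792 bases and 23.5.

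GR was at the start of 1 of these 8 (12.5%), against 16.9% of all genes of this class. That gene was Fbxo48, with a GR peak of 276 bases and H3K4me3 of 757 bases with a fold of 17.6. A further 2 GR peaks lay 2504 and 2782 bases upstream on H3K27ac alone, and the first overlapped a CTCF peak. The nearest Pol2 peak was 198988 bases from Fbxo48. Of the 3 F-box genes with another list but no H3K4me3 at the start, Fbxw10 had a GR peak of 232 bases that carried no histone peak, centred 25 bases upstream. Fbxo39, a testis gene, had H3K4me1 alone, and Fbxl22 is described above.

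CTCF was at the start of Fbxo7 (deposited fold 19.0), Fbxo34 (13.1), Fbxo15 (12.9), Fbxo47 (11.2), Fbxo46 (8.44), Fbxo42 (7.82) and Fbxl22 (6.13). Of these 7, 6 had H3K4me3, against 94.1% of all genes with CTCF at a start, and Fbxl22 did not. A GR peak overlapped the CTCF peak itself at Fbxo7, Fbxo34, Fbxo46 and Fbxo42. Fbxo15, a gene known from pluripotent cells, and Fbxo47, a meiotic gene, had GR at the start beside the CTCF peak but not on it.

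The cluster of 14 Fbxw genes lay at chr9:109139447-109790670, over 651224 bases. It held Fbxw13, Fbxw14, Fbxw15, Fbxw16, Fbxw18, Fbxw19, Fbxw20, Fbxw21, Fbxw22, Fbxw24, Fbxw25, Fbxw26, Fbxw27 and Fbxw28 and no other protein-coding gene. In the mouse, genes of this rodent-expanded group are known from oocytes. Not 1 peak of any of the 6 lists fell inside. The nearest GR peaks were 56842 bases before and 41962 bases after it, and the stretch free of all lists spanned 732763 bases. Across the genome 450 of 81615 stretches between peaks were at least as long. Over all genes 19.7% had no peak at a start, in the body or within 25 kb, and for F-box genes it was these 14, or 18.4%. Fbxo16, on chromosome 14, was the only other F-box gene with no peak at its start, and its nearest H3K4me3 peak was 3894 bases away.

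**Figure D5:**
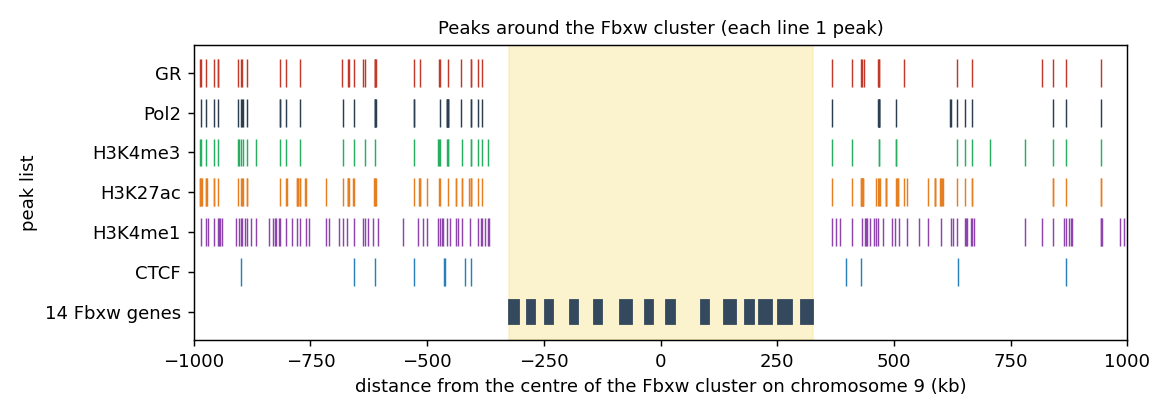
Peaks of the 6 lists (1 line per peak) around the centre of the Fbxw cluster on chromosome 9 (distance in kb), with the 14 genes as dark blocks on the bottom row and the cluster shaded. No list has a peak in the 651224 bases of the cluster, and peaks of each list lie on both sides.

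The cluster genes share part of their sequence, which bears on what reads can show. Of the 31-base words in their start windows, between 29.8 and 84.3% (median 37.5%) occurred elsewhere in the genome, against 0 to 14.8% (median 1.04%) for the other 62 F-box genes. At 11 of the 14 the repeated share was 29.8 to 42.9%, so that most words were found once in the genome, and at Fbxw14, Fbxw22 and Fbxw28 it was 56.5 to 84.3%. A median of 16.2% of these windows was repeat-masked, against 13.3% for the other F-box genes, and GC was 45.2%, against 52.8%. Reads from such words have more than 1 place in the genome, and the authors' treatment of them is unknown. The part of repeated sequence in the empty lists was not tested. Fbxw14 and Fbxw28 had the highest shares, 79.6 and 84.3%, and are shown as the extreme and not the typical case: from 100 bases before to 20 after the start all 120 bases were identical, on the minus strand at chr9:109287657-109287776 and chr9:109339640-109339759.
Fbxw14: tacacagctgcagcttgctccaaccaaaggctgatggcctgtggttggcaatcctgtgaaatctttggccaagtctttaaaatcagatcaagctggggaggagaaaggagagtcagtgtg
Fbxw28: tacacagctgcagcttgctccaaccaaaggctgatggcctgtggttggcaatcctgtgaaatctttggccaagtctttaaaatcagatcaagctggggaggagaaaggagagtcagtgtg

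The germ line or testis list joined these 14 with Fbxo15, Fbxo24, Fbxo39, Fbxo43, Fbxo47 and Fbxw17. Of the 20, 3 had H3K4me3, Pol2 and GR at the start, against 39.7% of all genes, namely Fbxo15, Fbxo24 and Fbxo47. Fbxo15 and Fbxo24 share their start windows with Timm21 and Lrch4 on the opposite strand. Of the 3 neuronal genes, Fbxo45 had all 3 peaks and also lay beside a partner, Wdr53.

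Promoters of 58 F-box genes, 11 of them in the cluster, had a RefSeq sequence of 250 bases before to 50 after the start. The E-box CAGCTG was in 22 (37.9%), against 18.3% of the 27025 genes in the RefSeq table, which was not limited to protein-coding genes. All 11 cluster promoters held it, and outside the cluster it was in 11 of 47 (23.4%). The GC box GGGCGG was in 35 (60.3%), against 38.2%, with 1 of the 11 cluster promoters and 34 of the 47 others (72.3%). CACGTG was in 4 (6.9%, against 8.09%), namely Fbxl2, Fbxl22, Fbxo7 and Fbxo10. The MEF2-like pattern was in 2 (3.45%, against 4.23%), Fbxl15 and Fbxo34, and promoters without it may hold other forms of MEF2 site. The GRE and the FOXO motif were in 0 of the 58, against 0.537 and 4.05% of genes.

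Among the partners of F-box proteins, of 35 genes for SCF subunits, neddylation enzymes, COP9 signalosome subunits and ubiquitin-conjugating enzymes, 34 had H3K4me3 and Pol2 at the start, against 46.4% of all genes, and 33 had GR there, against 42.6%. Cdc34b had none of these, and Cand2, which encodes the muscle-rich form of the SCF exchange factor, had no GR at the start but 1 in the body. The core subunits Cul1 and Skp1a had 2 and 1 GR peaks at the start. Cdc34, the ubiquitin-conjugating enzyme of SCF, had 8 GR peaks within 25 kb and 4 at its start, while 4.34% of all genes had 6 or more within 25 kb. How many of the 8 lay nearer to another gene was not computed. Pol2 covered 23.0% of Cdc34, and 2.85% of all genes had more than 10% covered. Of 9 F-box genes with other symbols, 8 had all 3 peaks, against 39.7% of all genes. These were Skp2, Btrc, Ccnf, Kdm2a, Kdm2b, Lrrc29, Fbh1 and Lmo7, while Nccrp1 had none of the 3.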

How the data were processed

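ChIP-seq of 6 antibodies (1 library each) and 2 inputs came from skeletal muscle nuclei, with libraries made from 10 ng of DNA and 7 PCR cycles, per the labels' protocols. Per the submitters' processing notes, the build was mm10 and the tools included MACS2 (no version given), Bowtie 1.0.0 and bcl2fastq 2.17.1.14. The deposited lists give peak positions. For CTCF and H3K4me3 the authors also deposited a score, a fold (ratio) of enrichment, and −log10 p-value and −log10 q-value columns, of which the fold was used to describe and rank peaks. Depth is unknown, and intervals (Clopper-Pearson) cover counting error only. Amplified reads were not counted by molecule, and the intervals do not cover any error that this adds to the peak lists.

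Peaks were overlapped (at least 1 shared base) with start sites of all protein-coding transcripts in GENCODE M21, bodies outside those windows and 25 kb around starts, in Python 3.11.15 with pandas 2.3.3 and numpy 2.4.6. Coverage percentages are over the whole gene record. H3K4me3 widths are summed over the peaks at a gene's starts, and folds are the highest there. Mitochondrial peaks (8 GR, 1 Pol2, 7 H3K4me3, 5 CTCF) were left out. The overlap step was tested on simulated peaks. Sequences came from the same build and from RefSeq. Members and lists were chosen with earlier results of these data known. Values were named for muscle-mass and clock genes, for the 10 F-box genes ranking highest in GR width, GR count and Pol2 coverage (ties kept), for those with CTCF, and for those with H3K4me3 without Pol2. Some items that these rules cover are not reported here.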

Additional observations from a re-analysis of the deposited data

How the results depend on the processing

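Of 78 recomputed counts, 64 stayed within 1.5 times the count reported and 14 did not. Keeping the widest 50% of each list gave 30 F-box genes with GR at the start (39.5%, against 30.3% of all genes) and 31 with Pol2 (40.8%, against 30.9%). In bodies it gave 5 for GR (6.58%, against 8.37% of all genes) and 10 for H3K27ac (13.2%, against 12.7%). For H3K4me3 it gave 3 (3.95%, against 3.1%) and for CTCF 3 (3.95%, against 4.71%), so both changed sides relative to all genes. Counting the whole body, start windows included, raised the counts by construction. It gave 45 for GR (59.2%, against 45.2%), 44 for Pol2 (57.9%, against 46.4%) and 59 for H3K4me3 (77.6%, against 62.8%). H3K27ac was then in 48 (63.2%, against 53.8%) and CTCF in 15 (19.7%, against 13.6%). With 1 start per gene, its 5 prime end, CTCF was at 4 F-box starts, or 5.26%, now below the 5.62% of all genes. Within 10 kb CTCF lay near 18 (23.7%, against 16.3%), and with each peak given to its nearest gene near 15 (19.7%, against 17.0%). Windows of 500 bases or 2 kb left GR at the start of 47 (61.8%, against 41.8%) and 48 F-box genes (63.2%, against 43.8%). No paired analysis was possible because there was 1 library per antibody, and no replicate could be left out. The limits are 1 library each, unknown depth, and no signal values for GR, Pol2, H3K27ac and H3K4me1, so that width and number stand in for strength.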

Other observations

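Long F-box genes differed in how much of their body carried enhancer marks. Fbxl17, the longest at 442566 bases, held 41 H3K4me1 and 15 H3K27ac peaks in its body, and H3K4me1 covered 19.2% of the gene. Fbxl7, at 355122 bases, held 2 H3K4me1 peaks and no H3K27ac peak there, with 0.727% covered by H3K4me1. Fbxw7, at 163931 bases, had 10.5% under H3K4me1, while Fbxw11 (104093 bases) and Fbxw8 (90500 bases) had 63.6 and 56.9%. GR peaks in the body numbered 1 at Fbxl17, 0 at Fbxl7 and Fbxw7, and 4 at Fbxw11 and Fbxw8.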
